A study of Homo sapiens with 9 samples.

Results

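Broad H3K4me3 domains were taken as the H3K4me3 islands of WT BEAS-2B cells that spanned at least 10 kb and overlapped an H3K4me3 island of mdig KO cells on chromosomes 1 to 22 and X. An island is a stretch of genome that the authors called as enriched for a mark in 1 library. By this rule 1212 of 17202 WT H3K4me3 islands were domains, out of 141489 islands in the 8 ChIP libraries. The domains were thus chosen by their measured WT length and their overlap with KO, and these values are given as a description. BEAS-2B is an immortalized line of human bronchial epithelial cells. Mdig (RIOX2, also mina53) is a JmjC domain protein, and its gene was edited with CRISPR-Cas9.

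The groups were mdig KO BEAS-2B cells, in which the mdig protein was not detected, and WT BEAS-2B cells, with normal mdig protein. Both came from blasticidin-selected colonies after transfection with the CRISPR-Cas9 vector, and the WT cells were colonies that had kept mdig, so each group may carry traits of its colonies. H3K4me3, H3K27me3, H3K9me3 and H3R8me2a were each measured by ChIP-seq in 1 library of KO and 1 of WT, with 1 input of WT. With 1 library for each condition, no difference below has a replicate or a test, and a factor between KO and WT compares those libraries, not the genotypes. Islands were deposited as starts and ends with no height or read number, so the depth behind them is unknown, and a mark in fewer cells cannot be told apart from less mark in each cell.

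H3K4me3 is the trimethylation of lysine 4 of histone H3 and marks the starts of active or poised genes, where methyltransferase complexes of the SET1 and MLL families are recruited to CpG-rich DNA. At most genes it covers a narrow stretch around the start. Domains that run on for many kilobases are known from many cell types for covering genes of cell identity, tumour suppressors and highly transcribed genes. H3K27me3 is the mark of Polycomb repression, H3K9me3 is a mark of heterochromatin, and H3R8me2a is asymmetric dimethylation of arginine 8 on the same histone.

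The libraries held 17499 H3K4me3 islands in KO and 17202 in WT, which covered 102.1 Mb in KO and 88.8 Mb in WT. The other marks also covered more of the genome in KO, with 194.9 Mb in KO and 52.7 Mb in WT for H3K9me3, 341.6 and 256.1 Mb for H3K27me3, and 100.4 and 62.3 Mb for H3R8me2a, KO first. Of 26 genes of airway and epithelial identity, 14 had their start under an H3K4me3 island in each genotype, as had 16 of 18 mesenchymal genes. No start of 10 hepatocyte genes was marked. Of 11 leukocyte genes, 2 were marked in KO and 1 in WT, and 6 of 11 neuronal genes were marked in each.

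The promoters that the length results below turn on were read from GRCh37, 5′ to 3′ on the strand of the gene, with each CpG in capitals. Each is the 200 bases before the start of the gene's reference transcript (MANE Select or Ensembl canonical). This start can differ from the outermost annotated start by which genes were placed in domains. METRNL belongs to a domain that was shorter in KO, PLXND1, TUBB4B and CCN1 to domains that were longer in KO, and NR2F2 to one of the longest domains with a single start.
METRNL (chr17:81037285-81037484, plus strand): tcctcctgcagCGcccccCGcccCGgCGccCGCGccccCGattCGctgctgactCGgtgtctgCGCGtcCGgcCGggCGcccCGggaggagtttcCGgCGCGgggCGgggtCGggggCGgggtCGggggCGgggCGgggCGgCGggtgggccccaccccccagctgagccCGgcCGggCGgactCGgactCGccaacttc
PLXND1 (chr3:129325520-129325719, minus strand): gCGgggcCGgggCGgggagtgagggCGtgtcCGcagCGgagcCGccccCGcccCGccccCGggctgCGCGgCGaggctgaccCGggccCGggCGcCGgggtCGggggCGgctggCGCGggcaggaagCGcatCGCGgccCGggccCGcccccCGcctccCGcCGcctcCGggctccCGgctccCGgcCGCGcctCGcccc
TUBB4B (chr9:140135539-140135738, plus strand): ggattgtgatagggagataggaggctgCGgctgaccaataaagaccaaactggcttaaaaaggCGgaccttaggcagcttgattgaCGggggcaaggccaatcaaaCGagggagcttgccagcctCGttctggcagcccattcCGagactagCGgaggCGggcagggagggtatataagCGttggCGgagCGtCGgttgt
CCN1 (chr1:86046244-86046443, plus strand): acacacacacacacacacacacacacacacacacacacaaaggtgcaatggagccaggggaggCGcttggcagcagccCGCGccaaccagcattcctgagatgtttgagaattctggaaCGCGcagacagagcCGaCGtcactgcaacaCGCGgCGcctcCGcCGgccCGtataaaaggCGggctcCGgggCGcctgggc
NR2F2 (chr15:96873729-96873928, plus strand): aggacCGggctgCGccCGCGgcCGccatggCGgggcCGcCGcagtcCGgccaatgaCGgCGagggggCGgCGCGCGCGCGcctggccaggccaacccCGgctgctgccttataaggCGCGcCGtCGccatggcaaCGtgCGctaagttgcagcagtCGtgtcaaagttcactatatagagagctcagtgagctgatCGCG

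These windows held 31 CpG in METRNL, 35 in PLXND1, 12 in TUBB4B, 16 in CCN1 and 27 in NR2F2. The median was 20 over the 1710 promoters of genes placed in domains and 20 over the 6301 promoters of genes placed in islands of 5 to 10 kb. Some of these windows, such as that of ACTB, lay outside the domain of the gene. The TATA box TATAAA, searched on the gene's strand, was found in the CCN1 window alone of the 5. It was found in 2.98% of promoters in domains, against 2.65% in islands of 5 to 10 kb and 2.70% in islands under 5 kb. The TEAD motif, searched on both strands as GGAATG or CATTCC, was found in the CCN1 and TUBB4B windows and in 7.13% of promoters in domains, against 6.30% and 6.97% in the shorter classes. TGANTCA, the AP-1 motif, was in 2.46% of promoters in domains, against 2.17% and 2.70%, and the CRE TGACGTCA was in 2.57%, against 3.09% and 2.73%. Promoters of broad domains thus held these letters about as often as promoters of shorter islands. Along their whole length, domains had a median GC content of 55.2% (interquartile range 50.6 to 59.0%), against 50% (46.4 to 54.7%) in islands of 5 to 10 kb. CpG density was 30.3 per kb in both.

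Domains also held 82 miRNA genes, in 76 domains, of which 62 matched a mature sequence in RefSeq (table of GRCh38). The sequences shown are of pairs that lie side by side in a domain, of a pair that shares its seed and of miRNAs whose domain differed in length, with the seed (bases 2 to 8) in capitals.
hsa-miR-23a-3p: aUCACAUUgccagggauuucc
hsa-miR-27a-3p: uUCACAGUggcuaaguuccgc
hsa-miR-193b-3p: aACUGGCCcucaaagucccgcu
hsa-miR-365a-3p: uAAUGCCCcuaaaaauccuuau
hsa-miR-191-5p: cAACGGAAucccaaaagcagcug
hsa-miR-33b-5p: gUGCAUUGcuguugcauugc
hsa-miR-301a-3p: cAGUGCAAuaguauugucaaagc
hsa-miR-301b-3p: cAGUGCAAugauauugucaaagc

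The genes of miR-23a and miR-27a lay in the domain of MIR23AHG on chromosome 19, which spanned 15.6 kb in KO and 12.2 kb in WT. The genes of miR-193b and miR-365a lay in that of MIR193BHG on chromosome 16, with 13.8 kb in KO and 14.2 kb in WT. Both host domains kept most of their length in KO. The domain of miR-191, which also covers the starts of DALRD3, IMPDH2 and NDUFAF3, spanned 31.2 kb in KO and 16.8 kb in WT. The domain of miR-33b, inside SREBF1, a regulator of lipid synthesis, spanned 7.4 kb in KO and 15.4 kb in WT. MiR-301a and miR-301b share the seed AGUGCAA and lay in domains on chromosomes 17 and 22, with 11.6 and 20.8 kb in KO, against 12.4 and 16.6 kb in WT.

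The KO length of a domain is the summed length of the KO H3K4me3 islands that overlapped it. Its median was 13 kb in KO (interquartile range 10.4 to 17.6 kb), against 12.4 kb in WT (10.8 to 15.2 kb). The median KO over WT length was 1.01 (interquartile range 0.882 to 1.18), and it ranged between 0.217 and 4.16 over the domains. Domains were counted as shorter or longer in KO at a factor of 1.5. By that rule 93 domains were shorter (7.67%), where the background over all 16052 overlapping WT islands was 4.09%. Longer domains numbered 125 (10.3%), where the background was 22.1%, and 994 were neither. The KO library covered more of the genome, and scaling its lengths to the WT total (a factor of 0.869, or a shift of -0.20 on the log2 scale) gave 160 shorter and 66 longer domains. Just inside the threshold, 77 domains of 10 kb had a KO median of 10 kb. Just outside it, 76 islands of 9.8 kb had a KO median of 10.1 kb.

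**Figure D1:**
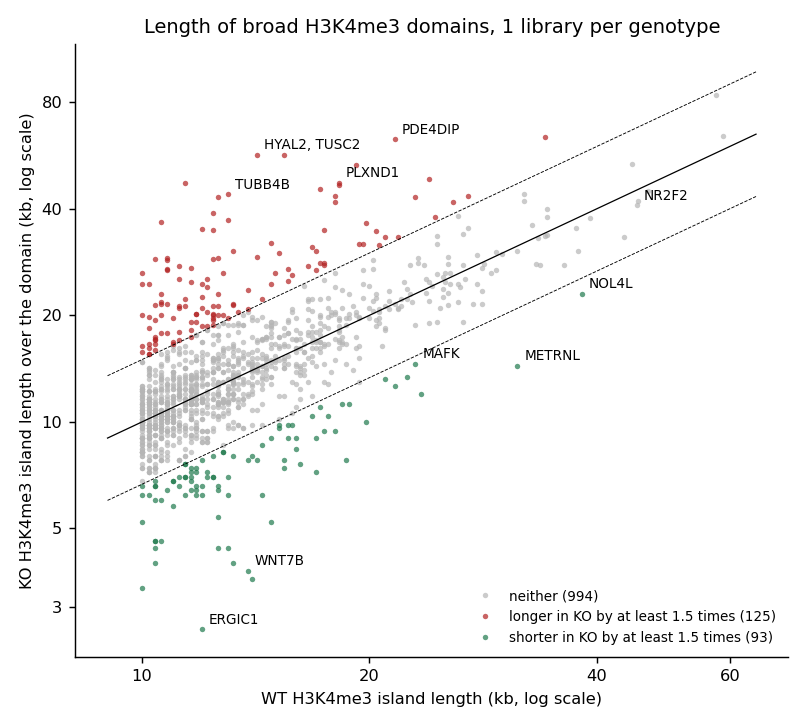
KO length (vertical axis) against WT length (horizontal axis) of the 1212 domains, both in kb on log scales, with equal lengths on the solid line and a factor of 1.5 on the dashed lines. Most points (994) lie between the dashed lines, 125 lie above them and 93 below, and METRNL, NOL4L, WNT7B and ERGIC1 are among those below.

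Most of the domain bases stayed marked. KO islands covered 88.7% of the 17.0 Mb, and 1179 domains kept at least 50% of their bases, which is 97.3%, where the background over all overlapping WT islands was 98.8%. KO islands covered 370 domains whole (30.5%), where the background was 50.8% and islands of 5 to 10 kb had 42.2%. A single KO island overlapped 1101 domains, 2 islands overlapped 108 and 3 overlapped 3. Over all 16052 overlapping WT islands, domains included, these counts were 15867, 182 and 3. In islands of 5 to 10 kb, 2 KO islands overlapped 66 of 6492. Most domains thus met 1 KO island, but domains met several more often than shorter islands did. Of the 1931 kb without a KO island, 1784 kb lay at the edges of domains and 147.4 kb lay between KO islands inside them. Summed domain by domain, KO islands ran 3323 kb beyond the edges. This sum counts a KO island again for each domain it overlaps, and it can include bases of a neighbouring domain. With each counted once, the KO islands over domains covered 17.8 Mb, against 17.0 Mb of WT domains. In KO, 961 of the domains still had at least 10 kb of H3K4me3 and 251 had less.

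The longest of the domains covered several genes each. The longest lay on chromosome 17 (chr17 in GRCh37) over the starts of 7 protein-coding genes, among them ALYREF, an mRNA export factor, ANAPC11, a subunit of the anaphase-promoting complex, MAFG, a small Maf factor, PYCR1, an enzyme of proline synthesis, and SIRT7, a deacetylase. It spanned 64.2 kb in KO and 58.8 kb in WT, a difference of 5.4 kb that turned to -2.99 kb with KO lengths scaled to the WT total. The next, on chromosome 9, held ANAPC2, SSNA1 and TPRN among 9 starts and spanned 83.6 kb in KO and 57.6 kb in WT. The domain of CEND1, PIDD1 and RPLP2 on chromosome 11 spanned 53.6 kb in KO and 44.6 kb in WT, and its difference of 9 kb was 1.99 kb with that scaling and 34.8 kb with islands within 1 kb joined.

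Other domains among the 12 longest had a single coding start or none. NR2F2, the nuclear receptor COUP-TFII, had 41 kb in KO, in 3 islands, and 45.2 kb in WT. MIRLET7BHG, the host transcript of let-7 miRNAs, had 42 kb in KO and 45.4 kb in WT. TENT4A, a poly(A) polymerase, had 35.2 kb in KO and 37.6 kb in WT. BAIAP2, an adaptor of actin and membrane, had 27.8 kb in KO and 36.2 kb in WT. NBPF1 had 45 kb in KO and 46.8 kb in WT. NBPF1 belongs to a family of near-identical copies on chromosome 1, as do PDE4DIP and SEC22B below, and reads that fit several copies cannot be placed with certainty, so these 3 are uncertain. Of the 12 longest, the one called shorter was NOL4L.

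The largest decrease was at METRNL, which encodes a secreted meteorin-like protein, on chromosome 17. Its domain (81026801 to 81058200) spanned 14.4 kb in KO, in 2 islands, and 31.4 kb in WT. The METRNL start lay in the gap between these 2 islands, 0.085 kb from the nearer one. The METRNL domain also held 5.8 kb of H3K9me3 in KO and 0 kb in WT. NOL4L spanned 23 kb in KO and 38.2 kb in WT. RXRA, the partner receptor of the retinoic acid and vitamin D receptors, had 12 kb in KO and 23.4 kb in WT over the domain near its alternative starts. RXRA held 2 more domains, with 7 kb in KO and 12.4 kb in WT, and with 22.4 kb in KO and 19.6 kb in WT, and another broad WT island in RXRA, of 13.4 kb, had no KO island. TXNRD2, the mitochondrial thioredoxin reductase, had 7.8 kb in KO and 18.6 kb in WT. TXNRD2 kept 41.9% of its domain bases.

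WNT7B, a secreted Wnt ligand, had 3.8 kb in KO and 13.8 kb in WT. CARD10, a scaffold of NF-kB signalling, had 7.2 kb in KO and 17 kb in WT. IKBKB, a kinase of the same pathway, had 4 kb in KO and 13.2 kb in WT, and H3R8me2a there was at 0 kb in KO and 9.8 kb in WT. RGS11, a regulator of G protein signalling, shared a domain with ARHGDIG, of 3.6 kb in KO and 14 kb in WT. This RGS11 domain lay wholly under H3K27me3, with 14 kb in each genotype. ERGIC1, a protein between the endoplasmic reticulum and the Golgi, had the smallest ratio, with 2.6 kb in KO and 12 kb in WT. NPDC1 had 5.2 kb in KO and 14.8 kb in WT. The last 2 of the 12 were MCRIP1 with PPP1R27, at 10 kb in KO and 19.8 kb in WT, and MCRIP2 with METTL26, WDR90 and WFIKKN1, at 33.2 kb in KO and 43.4 kb in WT.

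**Figure D2:**
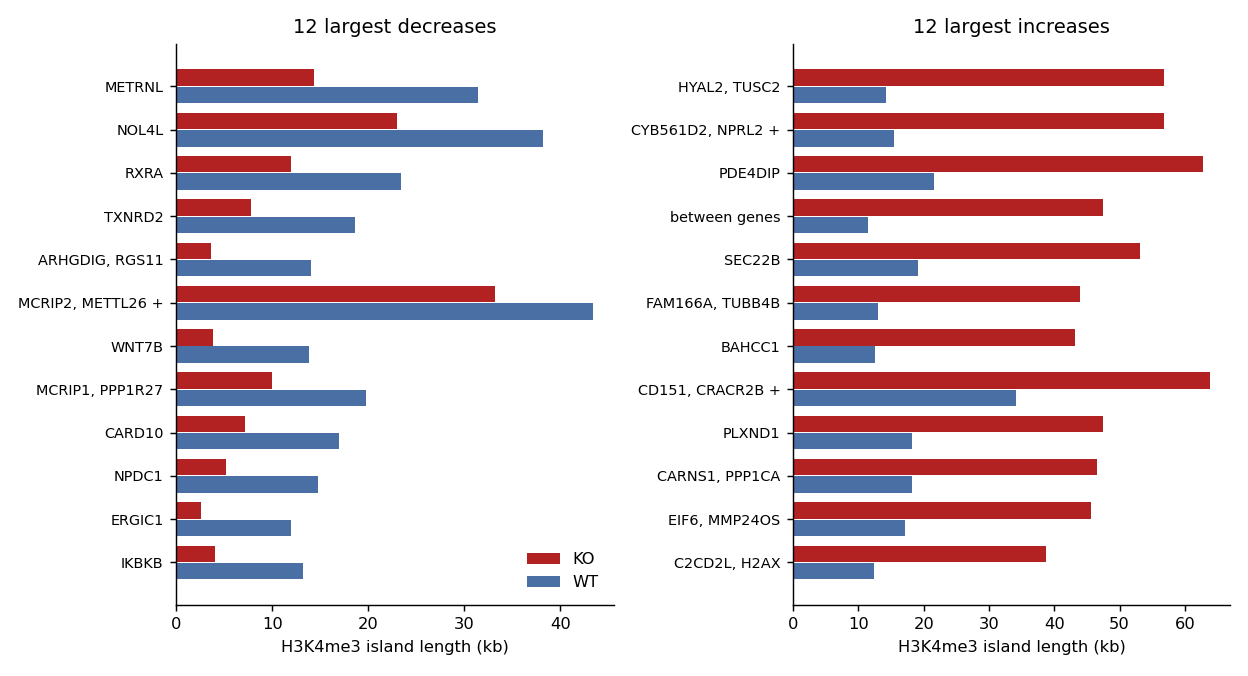
H3K4me3 island length in kb of the 12 domains with the largest decrease (left) and the 12 with the largest increase (right), KO above WT in each pair, with 1 library per genotype. A plus sign stands for further genes in the domain. METRNL had 14.4 kb in KO and 31.4 kb in WT, and HYAL2 with TUSC2 lay under a KO island of 56.8 kb, against 14.2 kb in WT.

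The largest increases were mostly KO islands that ran across several WT islands. Of the 125 longer domains, 75 (60%) lay in a KO island that also overlapped another WT island, against 115 of all domains (9.49%). The 115 include the 75. KO length counts the whole of each KO island, so such an island adds to it by definition. One KO island of 56.8 kb on chromosome 3 covered both the domain of HYAL2, a hyaluronidase, and TUSC2, of 14.2 kb in WT, and that of ZMYND10, a factor of cilia, NPRL2, a subunit of the GATOR1 complex, CYB561D2 and TMEM115, of 15.4 kb in WT. PLXND1, a semaphorin receptor, had 47.4 kb in KO and 18.2 kb in WT, and the same KO island covered a domain between genes of 11.4 kb in WT. BAHCC1 had a KO island of 43.2 kb over WT domains of 12.6 and 23 kb.

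TUBB4B, a beta tubulin, had 44 kb in KO and 13 kb in WT, and one of its KO islands reached the ANAPC2 domain. Joining islands within 1 kb gave a TUBB4B difference of 84.4 kb in place of 31 kb. EIF6, a ribosome assembly factor, had 45.6 kb in KO and 17.2 kb in WT. H2AX, a histone of the DNA damage response, shared with C2CD2L a domain of 38.8 kb in KO and 12.4 kb in WT, and the difference of 26.4 kb was 9.4 kb with islands within 1 kb joined. CD151, a tetraspanin, and PNPLA2, a triglyceride lipase, were in a domain of 63.8 kb in KO and 34.2 kb in WT, and there the joining gave a difference of 45.2 kb in place of 29.6 kb. PPP1CA, the catalytic subunit of protein phosphatase 1, and CARNS1 had 46.6 kb in KO and 18.2 kb in WT. For PPP1CA the direction depended on how islands were bounded, since joining islands within 1 kb gave a difference of -1.8 kb. PDE4DIP had 62.8 kb in KO and 21.6 kb in WT, and SEC22B had 53.2 kb in KO and 19.2 kb in WT.

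Of 20098 protein-coding genes, 1711 (8.51%) started in a domain, which is 13.9% of the 12342 that started in any overlapping WT island. A protein-coding start lay in 1022 domains (84.3%), against 79.0% of islands of 5 to 10 kb and 46.7% of islands under 5 kb. Domains with 1 such start numbered 587, and 435 had more, of which 25 held at least 5. In a further 121 domains another coding transcript of a gene started, 37 held a lncRNA start but no coding one, and 4 lay between genes. Over all domains, with or without a coding start, 495 held at least 1 lncRNA start. Domains with no coding start included those of 3 well-known lncRNAs. NEAT1, the scaffold of paraspeckles, had 33.6 kb in KO and 24.6 kb in WT. MALAT1 had 22.6 kb in KO, in 3 islands, and 25 kb in WT. MIR31HG had 24.8 kb in KO and 25.2 kb in WT. MYH9 and LMNA, the genes of non-muscle myosin and lamin A, had domains at alternative starts, with 23.2 and 21 kb in KO, against 25.4 and 21.8 kb in WT.

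In the 587 domains with 1 coding start, 486 (82.8%) ran farther downstream of the start than upstream. The median reach was 8.09 kb downstream and 3.69 kb upstream in KO, over the 579 whose start lay under a KO island, against 8.30 and 3.70 kb in WT. The downstream edge differed between the genotypes by at least 2 kb in 234 domains and the upstream edge in 147. At 5 kb downstream of the start, H3K4me3 covered 82.6% of these domains in KO and 92.3% in WT. At 10 kb downstream it covered 38% in KO and 35.6% in WT. The rule asked for a WT length of at least 10 kb and for no KO length. The WT share near the start is thus high by the choice of domains. Over all domains, 32 coding starts (1.87% of 1711) were not under a KO island, against 36 of 6301 (0.571%) in islands of 5 to 10 kb. Some of the 32 lay at the edge of a KO island, such as PTPRCAP at 0.048 kb and TGFBR3L at 0.086 kb. Others lay farther away, up to 7.3 kb at NPLOC4. The count thus depends in part on how islands were bounded. Besides METRNL the 32 included AGER, a receptor of glycated proteins, whose domain had 10.4 kb in KO and 17.6 kb in WT. UNC13D, a factor of granule release, had 11.8 kb in KO and 16.8 kb in WT, with its start 6.14 kb from the nearest KO island.

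**Figure D3:**
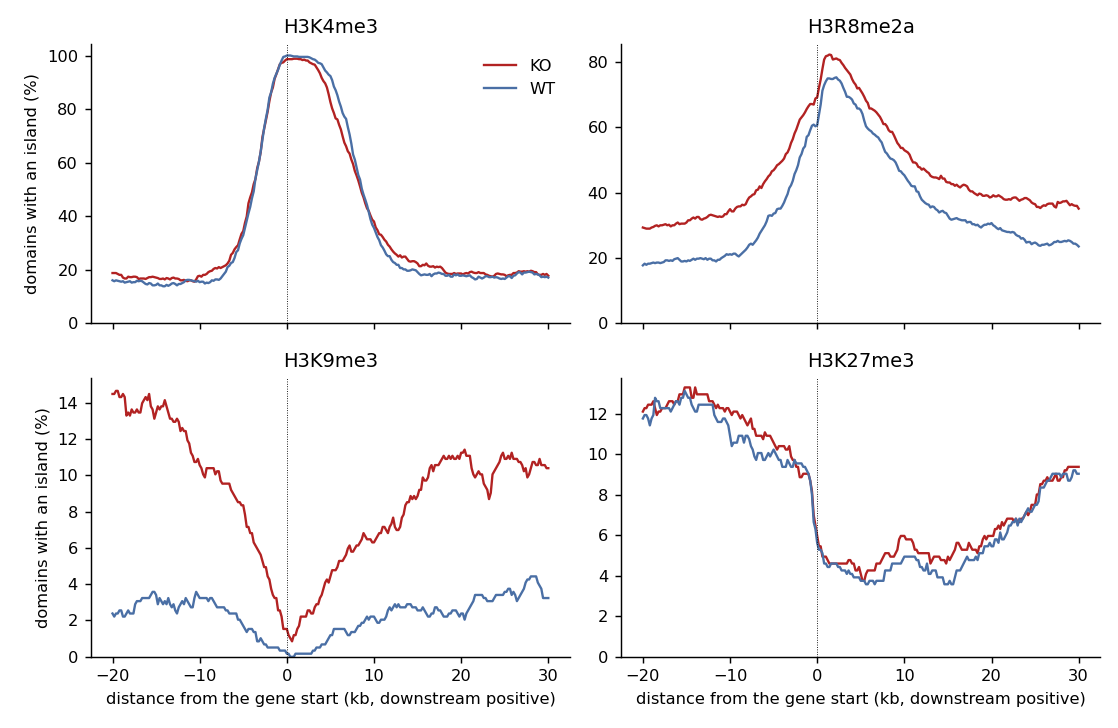
Percent of the 587 domains with a single protein-coding start that had an island at each distance (kb) from that start, for 4 marks, with KO in red and WT in blue. H3K4me3 extended farther downstream, H3R8me2a was at 80.9% in KO and 75.1% in WT at 2 kb downstream, and H3K9me3 was lowest near the start in both genotypes, at 1.53% in KO and 0.170% in WT.

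The other 3 marks were not used to choose the domains. H3R8me2a covered most domain bases, at 77.7% in KO and 67.3% in WT. In islands of 5 to 10 kb it covered 48.6% in KO and 38.3% in WT, and in islands under 5 kb 17.7% in KO and 11.1% in WT. The share was thus higher in longer H3K4me3 islands in both genotypes. Of the 1212 domains, 1104 held an H3R8me2a island in KO (91.1%) and 1031 in WT (85.1%), where the background was 40.4% and 32.6%. Domains covered to at least 90% numbered 614 in KO and 411 in WT. Over all 16052 overlapping WT islands these counts were 3059 and 1862. A domain counted as a gain of a mark where its KO bases were at least 2 times those in WT and exceeded them by 1 kb or more, and as a loss in the reverse case. H3R8me2a had a gain in 201 domains (16.6%), where the background was 16.3%, and a loss in 87 (7.18%), where it was 7.94%. The KO library held more H3R8me2a in all, and scaled to the WT total the counts turned to 147 gains and 177 losses.

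Of the 5 largest H3R8me2a gains, 3 were at domains with none of the mark in WT. The domain of METRN, HAGHL and 3 more genes on chromosome 16 held 29.4 kb in KO and 0 kb in WT. That of MIDN, CBARP and ATP5F1D on chromosome 19 held 23.8 kb in KO and 0 kb in WT. CORO1B, an actin-binding coronin, PTPRCAP and RPS6KB2 shared a domain with 19.8 kb in KO and 0 kb in WT. The domain of MAFK, another small Maf factor, held 22 kb of H3R8me2a in KO and 3.4 kb in WT, while its H3K4me3 length was 14.6 kb in KO and 23 kb in WT. The fifth was a domain of 6 genes with NME3 and SPSB3, with 33.6 kb in KO and 15.2 kb in WT.

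The largest losses of H3R8me2a included NR2F2, with 4.6 kb in KO and 23.2 kb in WT, although its H3K4me3 domain was nearly as long in KO. SLC12A7, a potassium chloride cotransporter, held 11.8 kb in KO and 25.6 kb in WT. CASTOR1, an arginine sensor of mTORC1 signalling, held 0 kb in KO and 13.2 kb in WT, and NARF held 0 kb in KO and 12.4 kb in WT. CIRBP, a cold-inducible RNA-binding protein, held 7.2 kb in KO and 19.6 kb in WT. Domains that were longer in KO had 91.3% of their bases under H3R8me2a in KO and 74.1% in WT. Domains that were shorter had 68.9% in KO and 64.1% in WT.

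**Figure D4:**
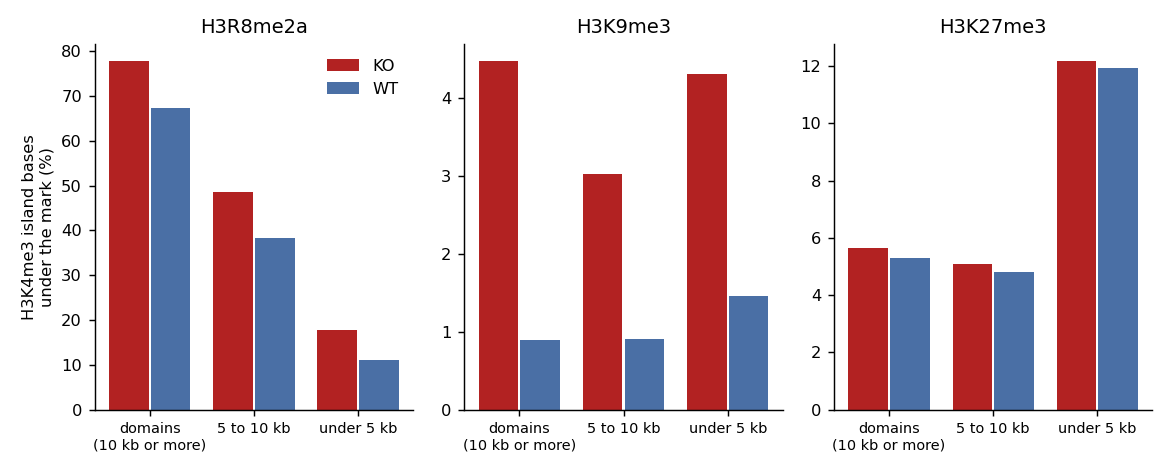
Percent of H3K4me3 island bases that lay under each other mark, KO left of WT, for the domains and for overlapping WT islands of 5 to 10 kb and under 5 kb, with 1 library per genotype and a separate vertical scale for each mark. H3R8me2a was at 77.7% in KO and 67.3% in WT of domain bases, and H3K9me3 at 4.46% in KO and 0.897% in WT.

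H3K9me3 covered 4.46% of domain bases in KO and 0.897% in WT, a ratio of 4.98. The ratio was 3.34 in islands of 5 to 10 kb, and the whole H3K9me3 library covered 194.9 Mb in KO and 52.7 Mb in WT. An H3K9me3 island reached into 159 domains in KO (13.1%) and 46 in WT (3.80%). Over all overlapping WT islands the shares were 8.09% in KO and 2.90% in WT. A gain was counted in 116 domains (9.57%), where the background was 4.68%. The call needs a difference of 1 kb, which longer islands can reach more easily. The median WT length was 12.4 kb in domains and 4.8 kb over all overlapping WT islands. H3K9me3 covered 3.69% of the bases of all those islands in KO and 1.07% in WT. A loss was counted in 1 domain, where the background was 0.112%, and this was TGFBI, an extracellular matrix protein induced by TGF-beta, with 0 kb in KO and 2 kb in WT. Scaled to the WT total of H3K9me3, the counts became 49 gains and 23 losses. The mark lay mostly toward the flanks. In domains with 1 coding start, it was present at the start in 1.53% in KO and 0.170% in WT, and 20 kb upstream in 14.5% in KO and 2.39% in WT. Domain bases that lacked H3K4me3 in KO were under H3K9me3 at 7.75% in KO and 2.30% in WT, and those that kept it at 4.04% in KO and 0.717% in WT.

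SLC12A7 had the largest gain of H3K9me3, with 24.6 kb in KO and 0 kb in WT. Its H3K4me3 domain of 26.4 kb in KO and 25.6 kb in WT was also covered whole by H3K27me3 in both genotypes, and with its H3R8me2a all 4 marks had islands there in KO. MAP2K3, a kinase upstream of p38, had 32 kb of H3K9me3 in KO and 9.4 kb in WT over a domain that H3K27me3 also covered whole. PP7080 had 12 kb in KO and 0 kb in WT, and FBRSL1 had 11.6 kb in KO and 0 kb in WT. A domain between genes on chromosome 17 had 11.4 kb in KO and 0 kb in WT. Domains with islands of all 4 marks numbered 27 in KO (2.23%) and 5 in WT (0.413%). The share over all overlapping WT islands was not counted. The H3K9me3 library itself covered 194.9 Mb in KO and 52.7 Mb in WT. Islands of 1 bulk library cannot say whether such marks sat on the same molecules.

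H3K27me3 covered 5.65% of domain bases in KO and 5.31% in WT. It had islands in 149 domains in KO (12.3%) and 150 in WT (12.4%), where the background was 12.7% and 12.4%. Gains numbered 26 (2.15%), where the background was 1.98%, and losses 22 (1.82%), where it was 1.83%. The largest gains were at MEGF6, with 12.6 kb in KO and 0 kb in WT, and at LAMA5, a laminin chain, with 11.8 kb in KO and 0 kb in WT. MEGF6 had an H3K4me3 length of 6.6 kb in KO and 12.6 kb in WT. SAMD11 had 9 kb of H3K27me3 in KO and 0.8 kb in WT, with H3K4me3 at 36.6 kb in KO and 10.6 kb in WT. Most of that KO length lay beyond the SAMD11 domain, of which KO islands covered 60.4%. SMARCD3, a subunit of SWI/SNF, had 10 kb of H3K27me3 in KO and 3.2 kb in WT, and HES1, a target of Notch signalling, had 8 kb in KO and 1.8 kb in WT. The largest losses were at TBX1, a developmental T-box factor, with 0 kb in KO and 9.6 kb in WT, and at PLEKHG5, with 0 kb in KO and 9.2 kb in WT. ARVCF with TANGO2 had 0 kb in KO and 6.8 kb in WT, EYA2 had 0 kb in KO and 5.8 kb in WT, and TBKBP1 had 0 kb in KO and 5.2 kb in WT. H3K27me3 also covered the HOX domains. That of HOXB3, HOXB5 and HOXB6 had 24 kb in each genotype, and that of HOXB4 had 14.4 kb in KO and 11.6 kb in WT. A domain inside HOXA3 had 10 kb of H3K27me3 in each, with H3K4me3 at 8.4 kb in KO and 10 kb in WT.

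Lists of genes were set beside the 13.9% of all marked coding starts that lay in a domain. The lists were chosen with earlier results of these data known. Their shares are thus a description, and whether a list differs from 13.9% was not tested. Of 28 marked genes of actin cytoskeleton and adhesion, 16 were in domains (57.1%), and none was called shorter or longer. ITGA3, an integrin chain, had 24.8 kb in KO and 24 kb in WT. AHNAK, a large scaffold protein, had 20.8 kb in KO and 20.6 kb in WT, and FLNA, a filamin, had 21.2 kb in KO and 21 kb in WT over its start. A second domain inside FLNA had 13.8 kb in KO and 13.2 kb in WT, but the KO island was the one at the start domain and covered 4.55% of it, the smallest share of any domain. ACTB, counted by its outermost annotated start, had 10.4 kb in KO, in 2 islands, and 10.8 kb in WT. The start of the ACTB reference transcript lay outside this domain. MYH9 at its annotated start had 7.8 kb in KO and 11.2 kb in WT, and ZYX, a focal adhesion protein, had 16 kb in KO and 11 kb in WT. The list was split in direction, with 8 longer and 8 shorter in KO at any size, and with lengths scaled to the WT total 3 were longer and 13 shorter.

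Of 23 marked AP-1 and immediate early genes, 11 were in domains (47.8%). MAFK was called shorter, as was DUSP4, a phosphatase of MAP kinases, with 9.8 kb in KO and 15.2 kb in WT. FOSL2, an AP-1 subunit, was called longer, with 20.4 kb in KO and 13.4 kb in WT. FOSL1 had 24.2 kb in KO and 20 kb in WT, and JUND had 9.8 kb in KO and 10.4 kb in WT. Of 17 marked Hippo pathway genes, 6 were in domains (35.3%), and 2 of them were called longer, where 10.3% of all domains and 22.1% of all overlapping islands were. CCN1, a matrix protein and target of YAP, had 19.6 kb in KO and 11 kb in WT, and TEAD3, one of the TEAD factors, had 17.8 kb in KO and 10.6 kb in WT. AMOTL2, a binder of YAP, had 34 kb in KO and 26.6 kb in WT.

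Of 22 marked TGF-beta and BMP pathway genes, 8 were in domains (36.4%), and all 8 had a lower KO than WT length, where 46.6% of all domains had. Their median ratio was 0.839, against 1.01 over all domains. With KO lengths scaled to the WT total all 8 were still lower. By that scaling 27.7% of all domains had more KO length, against 50.2% unscaled. One direction was not particular to this list. The 4 HOX genes in domains were all lower in KO, and scaled so were all 14 ribosomal protein genes. In the TGF-beta and BMP list the difference passed the factor of 1.5 at SMURF2, a ubiquitin ligase, with 8 kb in KO and 12.4 kb in WT. SMAD7, an inhibitory SMAD, had 13.6 kb in KO and 16.2 kb in WT. SKIL, a repressor of SMADs, had 7.8 kb in KO and 10.2 kb in WT. ID2 had 9.4 kb in KO and 11.2 kb in WT, and ID1 had 13.2 kb in KO and 13.6 kb in WT, a difference of 2 of the 200-bp steps of the islands. TGFB2, the ligand, had 10.8 kb in KO and 11.6 kb in WT, with H3R8me2a at 3.6 kb in KO and 11.4 kb in WT. Among 16 marked mesenchymal genes 5 were in domains. SNAI1, a repressor of epithelial genes, had 5.4 kb in KO and 12.6 kb in WT, and TGFBI had 7 kb in KO and 13 kb in WT. ZEB2, another such repressor, had 15.8 kb in KO and 12 kb in WT, so this list did not go in one direction.

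Epithelial genes in domains were ELF3, KRT8 and KRT18, of 14 marked. ELF3, an epithelial ETS factor, had 14.2 kb in KO and 16.2 kb in WT. The domain shared by the keratins KRT8 and KRT18 had 10.6 kb in KO and 10 kb in WT. KRT8 was counted there by its outermost annotated start. Another domain, at the start of the KRT8 reference transcript, had 15.4 kb in KO and 10.8 kb in WT. KRT80 was called longer, with 20.2 kb in KO and 12.4 kb in WT. Of 23 marked tumour suppressors, 5 were in domains (21.7%), and TSC2, an inhibitor of mTORC1, was called longer with 24 kb in KO and 12.2 kb in WT. CDKN2A had 12.4 kb in KO and 13 kb in WT. Of 19 marked enzymes and cofactors of H3K4 methylation, 7 were in domains (36.8%). SETD1B, a methyltransferase of the SET1 family, had 27.8 kb in KO and 26.6 kb in WT. KMT2D had 14.4 kb in KO and 13.2 kb in WT, and KDM5B, a demethylase, had 12.8 kb in KO and 11.4 kb in WT. These 3 turned to shorter in KO when KO lengths were scaled to the WT total. MEN1, a subunit of MLL complexes, had 15.2 kb in KO and 12.6 kb in WT. EPHA2, a receptor tyrosine kinase, had 22.2 kb in KO and 22.4 kb in WT, and MCL1, an inhibitor of apoptosis, had 24.2 kb in each.

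Zinc finger genes (ZNF) had 28 of 392 marked starts in a domain (7.14%), respiratory chain genes 5 of 73 (6.85%) and collagens 1 of 23, which was COL5A1 with 15.6 kb in KO and 11.2 kb in WT. Ribosomal protein genes had 14 of 72 (19.4%), and RPL27A, whose protein is hydroxylated by mdig, had 12 kb in KO and 13.6 kb in WT. Genes of NF-kB and inflammation had 4 of 23, of which TNFRSF12A, the receptor of TWEAK, was called longer, with 21 kb in KO and 12 kb in WT. Growth factor receptors and oncogenes had 5 of 18, nuclear receptors 3 of 20, HOX genes 4 of 20, keratins 3 of 4 and olfactory receptors 0 of 2. Histone genes had 8 of 55, in 4 domains, and H1-10, a linker histone, was called longer with 18.6 kb in KO and 12.2 kb in WT. Of the 6 marked neuronal genes none was in a domain, and the 1 leukocyte gene in a domain was CD68, which shared 24.8 kb in KO and 22.2 kb in WT with EIF4A1, a translation factor, and 2 other starts.

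Domains were unevenly spread over the genome. Chromosome 17 held 165, which is 18.7% of its overlapping WT islands, chromosome 20 had 17.9%, chromosome 22 had 13.0% and chromosome 16 had 11.1%. Chromosome 19, also dense in genes, had 6.39%, chromosome 14 had 1.67% and chromosome 4 had 0.894%. In 5-Mb windows, the first of chromosome 16 held 41 domains of 124 islands. On chromosome 17 the window of 75 to 80 Mb held 40 of 73 and the next one 17 of 23. Another domain lay within 50 kb of 470 domains (38.8%). The median KO over WT length of domains was 1.23 on chromosome 3, 1.12 on chromosome 20, 1.1 on chromosome 11 and 0.827 on chromosome 22. Over all overlapping WT islands the medians were 1.4, 1.32, 1.27 and 1 on those chromosomes. Chromosome 3 had 15 longer domains and 1 shorter, and chromosome 22 had 1 longer and 13 shorter, of 51 and 48 domains. Copy number was not measured here.

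**Figure D5:**
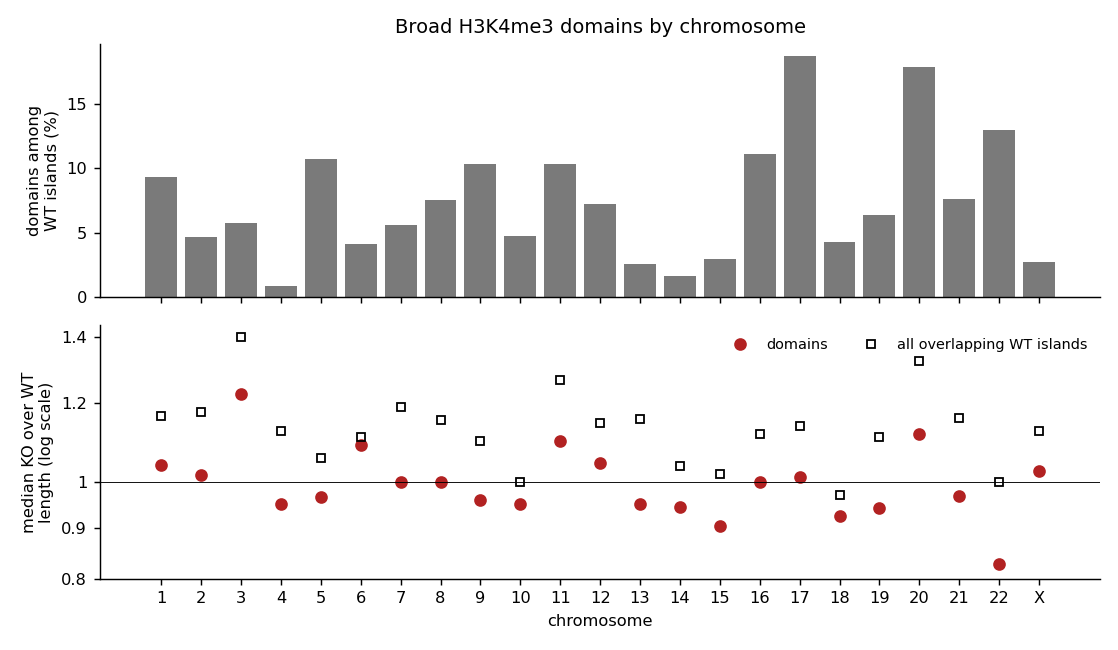
Share of overlapping WT H3K4me3 islands that were domains, in percent (upper panel), and median KO over WT length on a log scale (lower panel), by chromosome, for domains (circles) and all overlapping WT islands (squares). Chromosomes 17 and 20 had the highest shares, at 18.7% and 17.9%, and the domain median was highest on chromosome 3 (1.23) and lowest on chromosome 22 (0.827).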

How the data were processed

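ChIP-seq islands of 8 libraries of BEAS-2B cells were analysed, 4 marks in KO and 4 in WT, and the input was not used. Per the study's methods, the authors mapped reads of 75 nt on hg19 by BWA (version not given in the sources used here), lengthened them to 200 bp and sampled the libraries of a comparison down to the size of the smallest. SICER 1.1 is named in the submitters' notes. The islands are deposited per library as chromosome, start and end on a 200-bp grid, with no count, height or p-value. The sampling and the joining of windows both affect length, since a bridged gap makes 1 long island of 2.

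The length of an island was its end minus its start, both bases included. Overlap needed 1 base, and bedtools 2.31.1 gave the same 1212 domains. Genes came from GENCODE 44 mapped to GRCh37. A gene was taken to start at its outermost annotated start, and promoter windows used the reference transcript. Python 3.11.15, numpy 2.4.6 and matplotlib 3.10.9 were used, and the calls were tested on simulated islands. Genes were named at the 12 longest domains and the 12 largest differences in each direction. The 5 largest gains and losses of each other mark and members of the lists were also named. Further genes were chosen after their values were seen. These were starts not under a KO island, lncRNAs, miRNA hosts, MYH9 and LMNA at alternative starts, and HOXA3. The other RXRA, BAHCC1, FLNA and KRT8 domains were chosen in the same way. The domains and the lists were chosen with earlier results of these data known. KO and WT labels were not checked against the edit, which islands cannot show. One gene of a list and some promoter sequences are not reported here.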

Additional observations from a re-analysis of the deposited data

How the results depend on the processing

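No paired analysis was possible because each condition had 1 library, and none could be left out. Of 110 values under alternative settings, 65 stayed within 1.5 times the main count (or within its binomial interval), and the cause was not tested for the other 45. Domains of at least 5 kb numbered 7704 (337 shorter, 944 longer, 58.5% with more KO length, 7608 kept, 8012 coding genes) and domains of at least 15 kb 314 (28 shorter, 34 longer, 303 kept, 606 coding genes). At 5 kb there were 126 gains and 102 losses of H3K27me3, 425 gains and 8 losses of H3K9me3, and 1664 gains and 845 losses of H3R8me2a. At 15 kb these counts were 6 and 11, 37 and 0, and 38 and 13 in the same order. KO islands of at least 10 kb that overlapped a WT island numbered 1828 (54 shorter, 501 longer, 77.4% with more KO length), with 44 gains and 34 losses of H3K27me3, 178 gains of H3K9me3 and 458 of H3R8me2a. Choosing by KO length thus turned the balance of longer and shorter calls further toward longer. A lower length factor gave 194 shorter and 234 longer domains and a factor of 2 gave 21 and 45. Scaled to the WT total, 160 were shorter, 66 were longer and 27.7% had more KO length, against 50.2% unscaled. At 90% of bases, 762 domains were kept. With 5 kb on both sides H3K9me3 had 205 gains. Scaled to the WT total of each mark there were 49 gains and 23 losses of H3K9me3 and 177 losses of H3R8me2a. The 1 loss of H3K9me3 became 2 with islands joined and 3 at a factor of 1.5. Joining islands within 1 kb turned the sign of 1 domain past the factor, CARNS1 with PPP1CA, at -1.8 kb. Without read numbers no interval can be given, and lengths of islands are limited by depth that is not known.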

Other observations

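Another 13 WT H3K4me3 islands of at least 10 kb had no KO island and so were not domains. The longest lay at AATK on chromosome 17, with 26.2 kb in WT, beside one of 22 kb at an alternative start of BAIAP2. Others were at CARD10 with 16.6 kb, MEGF6 with 16 kb and WNT3A, a Wnt ligand, with 14.2 kb in WT, and at NPTX1 with 11.8 kb. CARD10, MEGF6, BAIAP2 and RXRA also held domains, with 7.2 kb in KO and 17 kb in WT at CARD10, with 6.6 kb in KO and 12.6 kb in WT at MEGF6, and with 27.8 kb in KO and 36.2 kb in WT at BAIAP2, which is not past the factor of 1.5. RXRA had a WT island of 13.4 kb with no KO island beside 3 domains, with 12 kb in KO and 23.4 kb in WT, with 7 kb in KO and 12.4 kb in WT, and with 22.4 kb in KO and 19.6 kb in WT, the last of them not past the factor.

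Among the 1828 KO islands of at least 10 kb that overlapped a WT island, 907 (49.6%) overlapped no WT island of that length. Their median was 11.6 kb in KO, over 8 kb of WT islands. They included CASKIN2, LLGL2 and TSEN54 with 32.2 kb in KO and 16 kb in WT, EPHB3, an ephrin receptor, with 24 kb in KO and 9.8 kb in WT, and VMP1, a gene of autophagy that also holds the transcript of miR-21, with 22 kb in KO and 7.8 kb in WT. The rule that takes broad islands of WT leaves these out.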
